A study of Mus musculus with 36 samples.

Results

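The 38 genes described here encode the transcription factor NRF2 (gene Nfe2l2), its repressor KEAP1, and enzymes of glutathione and antioxidant metabolism. They were taken by symbol from a written list, which was made with earlier results of these data known. Each matched 1 gene identifier among the 53715 genes counted, and 36 of them passed a filter on low counts. Whole-kidney RNA was sequenced from 36 animals, with 9 for every combination of genotype and treatment. The cKOt mice carried Bmal1 lox/lox, Pax8-rtTA and LC1, so that doxycycline deleted Bmal1 (gene Arntl), an activator at the heart of the clock, in the tubule cells where the Pax8 promoter drives rtTA. Controls were Bmal1 lox/lox littermates. Both genotypes received doxycycline at 2 mg/ml in drinking water for 2 weeks from an age of 8 weeks. At 1 week after doxycycline, mice were injected daily for 5 days with streptozotocin (STZ, 50 mg/kg), which destroys pancreatic beta cells and causes type 1 diabetes, or with vehicle, a phosphate buffer (PBS). At 8 weeks after injections ended, kidneys were taken at zeitgeber time 9, which counts hours from lights on. The 4 groups were PBS-control, PBS-cKOt, STZ-control and STZ-cKOt. Whole kidney also holds glomerular, vascular, interstitial and immune cells, which lie outside the renal tubule.

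NRF2 is held in the cytoplasm and marked for degradation by KEAP1, and electrophiles or oxidants modify KEAP1 so that NRF2 reaches the nucleus. There it binds antioxidant response elements with small MAF proteins and activates genes for glutathione synthesis, conjugation and quinone detoxification. Glutathione is a thiol tripeptide that reduces peroxides through glutathione peroxidases and is coupled to electrophiles by glutathione transferases. The proximal tubule is rich in these enzymes and takes apart filtered glutathione at its brush border.

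Arntl was measured first as a check of the genotype labels. Its counts ran from 1.09 to 2.40 counts per M reads (CPM) in PBS-control and from 12.9 to 17.4 CPM in PBS-cKOt, and counts over the whole gene do not separate the deleted part from the rest. In STZ-cKOt they ran from 13.0 to 17.1 CPM. In STZ-control 8 libraries lay between 1.18 and 2.64 CPM, whereas Arntl was at 13.4 CPM in the library labelled STZ-control 2. Ciart, a clock gene activated by BMAL1, was at 1.95 CPM in that library, against 18.2 to 32.5 CPM in the other STZ-control libraries and 1.10 to 3.62 CPM in the cKOt libraries. Dbp, another such gene, was at 22.1 CPM there, against 94.1 to 179 CPM in the other STZ-control and 16.5 to 33.1 CPM in the cKOt libraries. Npas2, a BMAL1 partner, was at 4.49 CPM, closer to the other controls of both treatments (0.730 to 3.40 CPM) than to the cKOt libraries (39.7 to 60.1 CPM). The library labelled STZ-control 2 thus went against its label in Arntl, Ciart and Dbp, and largely with it in Npas2. Its Gsta3 (95.9 CPM), Cat (1104 CPM) and Gsr (147 CPM) lay within the other STZ-control libraries and outside the STZ-cKOt range. On the first principal component it was at −13.5, against −26.3 to −7.12 in the other STZ-control and 9.12 to 29.2 in the cKOt libraries. The cause was not tested. Libraries PBS-cKOt 1, STZ-control 7, STZ-control 8 and PBS-cKOt 3 stood apart on a principal component and had the lowest slopes of log2 level on log2 exon length, after subtracting each gene's average (−0.160, −0.138, −0.0752 and −0.0673), so short transcripts read higher in them. PBS-cKOt 1 was the highest library of its group for 28 of the 36 tested genes, 14 of them among the 15 tested glutathione transferases, and STZ-control 7 for 20, 11 of them transferases. Results without these libraries are given below. Kidney markers were present, with all 12 proximal tubule, 5 thick ascending limb and 5 podocyte genes of the marker lists above the filter on low counts. Libraries held between 16.9 and 22.3 M assigned reads (median 20.1 M).

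The 6 genes that passed the tests described below in the most comparisons, with ties broken by the smallest adjusted p, were Gsta3, Mgst1, Ggt1, Nfe2l2, Ephx1 and Gsr. Bases just before the start sites of the first 5 are shown because NRF2 acts through a short element in such regions. The sequences are from RefSeq GRCm38.p6, 5′ to 3′ on the gene's strand, and capitals mark matches to TGACNNNGC, the core of the antioxidant response element, on either strand. The Gsta3 stretch is chr1:21240454-21240584 on the plus strand, and the stretch before the first Mgst1 start is chr6:138140407-138140526 on the plus strand. Of Ggt1, which has several start sites, the stretches with a match are chr10:75568542-75568661 and chr10:75571440-75571559, both on the plus strand. The windows before its other starts (chr10:75564012-75564131 and chr10:75573375-75573494) and before another Mgst1 start (chr6:138141467-138141586) held no match and are not shown. The Nfe2l2 stretch is chr2:75704664-75704913 and the Ephx1 stretch chr1:181017570-181017689, both on the minus strand.
Gsta3: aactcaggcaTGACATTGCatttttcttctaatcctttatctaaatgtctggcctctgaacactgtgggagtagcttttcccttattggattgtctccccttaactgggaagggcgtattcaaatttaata
Mgst1: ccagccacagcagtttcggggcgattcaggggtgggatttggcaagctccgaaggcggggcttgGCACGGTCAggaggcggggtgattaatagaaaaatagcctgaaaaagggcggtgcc
Ggt1 first: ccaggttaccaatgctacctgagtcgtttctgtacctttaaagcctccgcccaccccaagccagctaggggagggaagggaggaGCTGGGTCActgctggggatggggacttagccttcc
Ggt1 second: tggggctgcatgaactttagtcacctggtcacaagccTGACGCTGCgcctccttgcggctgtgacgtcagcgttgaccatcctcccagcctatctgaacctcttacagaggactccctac
Nfe2l2: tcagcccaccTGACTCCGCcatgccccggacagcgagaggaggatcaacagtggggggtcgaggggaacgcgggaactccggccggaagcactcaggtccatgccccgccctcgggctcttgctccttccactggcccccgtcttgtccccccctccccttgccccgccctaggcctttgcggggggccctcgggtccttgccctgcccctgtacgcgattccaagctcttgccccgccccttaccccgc
Ephx1: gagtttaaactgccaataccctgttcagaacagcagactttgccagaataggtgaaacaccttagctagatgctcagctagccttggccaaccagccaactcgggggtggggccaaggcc
The match lay 121 to 113 bases before the start in Gsta3, 56 to 48 in Mgst1 and 240 to 232 in Nfe2l2. The Ephx1 window held none of the letters searched. Over the 250 bases before each start, 10 of the 45 windows of 32 of the 38 genes held TGACNNNGC, against 10.2% of all 32851 promoter windows. The clock motifs CACGTG (E-box, in 6.02% of all windows) and TTATGTAA or TTACGTAA (D-box, in 0.931%) were in 0 of the 45 windows. All motifs were searched on both strands, and no match overlapped another. A match describes letters only, and windows without one say nothing of sites elsewhere.

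Levels per length, in CPM per kilobase of exon, are the scale on which different genes are compared. In PBS-control, Gpx3, the plasma glutathione peroxidase that the kidney secretes, stood far above the others at 10120.4 ± 745 (mean ± SD, n = 9). Its reads made up 55.1% to 71.3% of the reads of the 38 genes over the 36 libraries (median 66.0%), which together took 2.01% to 3.21% of assigned reads. Gpx1, the cytosolic glutathione peroxidase, followed at 879 ± 92.4, then catalase (Cat), which splits hydrogen peroxide, at 458 ± 38.05. Prdx1, a thioredoxin-dependent peroxidase, was at 350.2 ± 31.7, gamma-glutamyltransferase Ggt1 at 347 ± 33.0 and the transferase Gstm1 at 321 ± 40.8, and these 3 genes differed by no more than their spread. Nfe2l2 was at 26.2 ± 1.21, Hmox1 at 16.7 ± 2.38 and Keap1 at 7.52 ± 0.648. Gsta1 (0 to 20 reads per library) and Gstm3 (0 to 5 reads) failed the filter and were not tested. Of their transcripts' 50-base windows 89.7% and 28.8% also occur in other genes, and reads that mapped to several places were not assigned. In the fitted comparisons below, a fall in whole kidney RNA can reflect fewer cells of a type or less RNA per cell, which cannot be told apart.

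**Figure D1:**
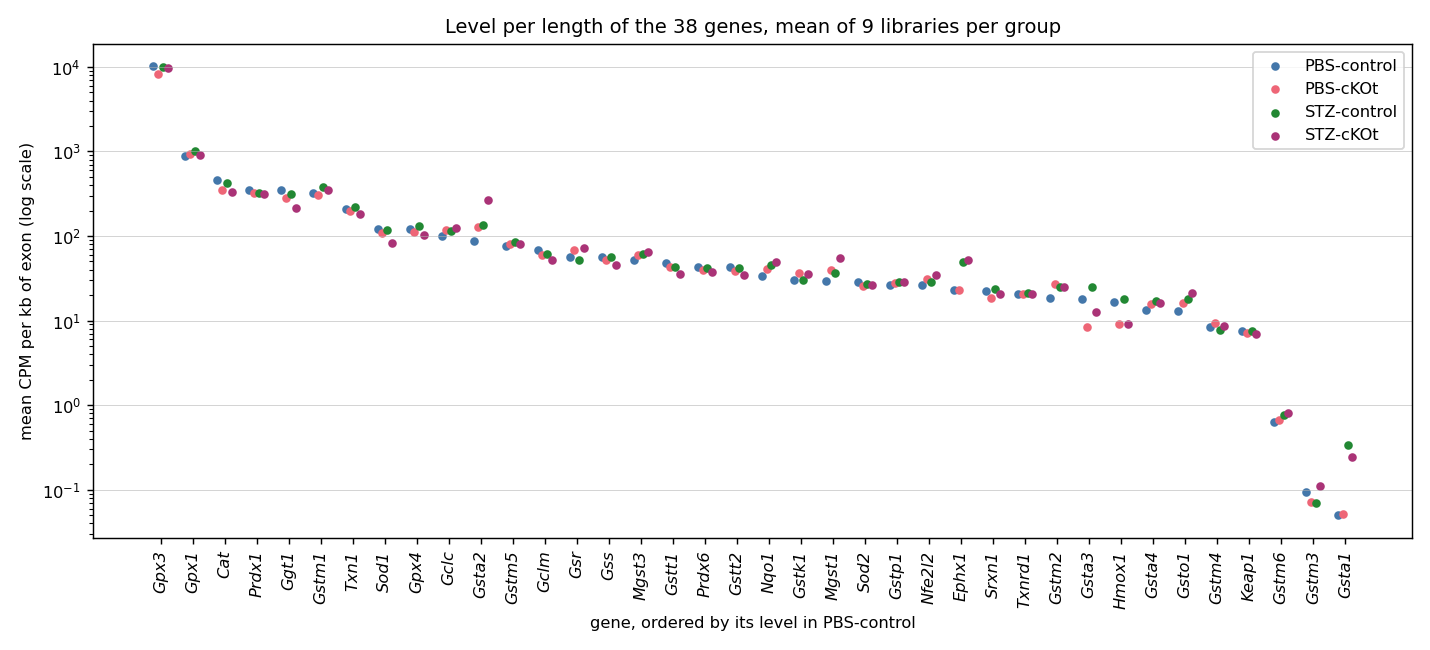
Mean CPM per kilobase of exon of the 38 genes (log axis), ordered by PBS-control, with 1 point per group (9 libraries each). Gpx3 stands above all others in every group, and Gsta1 and Gstm3 lie at the bottom.

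Deletion of Bmal1 changed 14 of the 36 tested genes in PBS mice and 16 in STZ mice, more often downward. A gene was counted as changed at an adjusted p below 0.05 in edgeR's quasi-likelihood test across 15637 genes. In PBS mice 5 were higher and 9 lower in cKOt, which is 38.9% of the 36 against 23.4% of all genes tested (10.9% higher, 12.5% lower). In STZ mice 4 were higher and 12 lower, which is 44.4% against 19.6% of all genes tested (9.52% higher, 10.1% lower). Because the list was made with earlier results of these data known, these shares are not independent of the data. The median log2 difference of the 36 was −0.037 in PBS mice and −0.075 in STZ mice, beside 0.0024 and −0.0083 over all genes tested. Nfe2l2, Gsr and Mgst1 were higher in both treatments, and Hmox1, Srxn1, Gclm, Ggt1, Gsta3, Prdx6 and Cat were lower in both. Gstm2, Gstk1, Gpx3 and Sod2 passed the test in PBS mice alone, and Gss, Gsta2, Gstt1, Gstt2, Gpx4 and Sod1 in STZ mice alone, which does not show a difference between treatments. No gene passed in opposite directions, and 32 of the 36 had the same sign in the 2 comparisons, which share no library. That share was not computed over all genes tested, so it does not set these genes apart. Without the library labelled STZ-control 2 the counts were 13 and 15, beside 23.2% and 18.6% of all genes tested. Without the 4 libraries that stood apart they were 18 and 16, beside 21.9% and 20.2%. In PBS mice this added Gclc, Gss, Gstt1, Prdx1 and Sod1 and lost Gclm. In STZ mice it added Gstk1 and Gsto1 and lost Gstt1 and Gstt2. No gene that passed changed sign in either case. With no filter beyond 1 read in any library, which tests 31610 genes, the calls of Gclm, Prdx6 and Sod2 in PBS mice and of Gclm, Gstt1, Prdx6 and Srxn1 in STZ mice were lost.

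**Figure D2:**
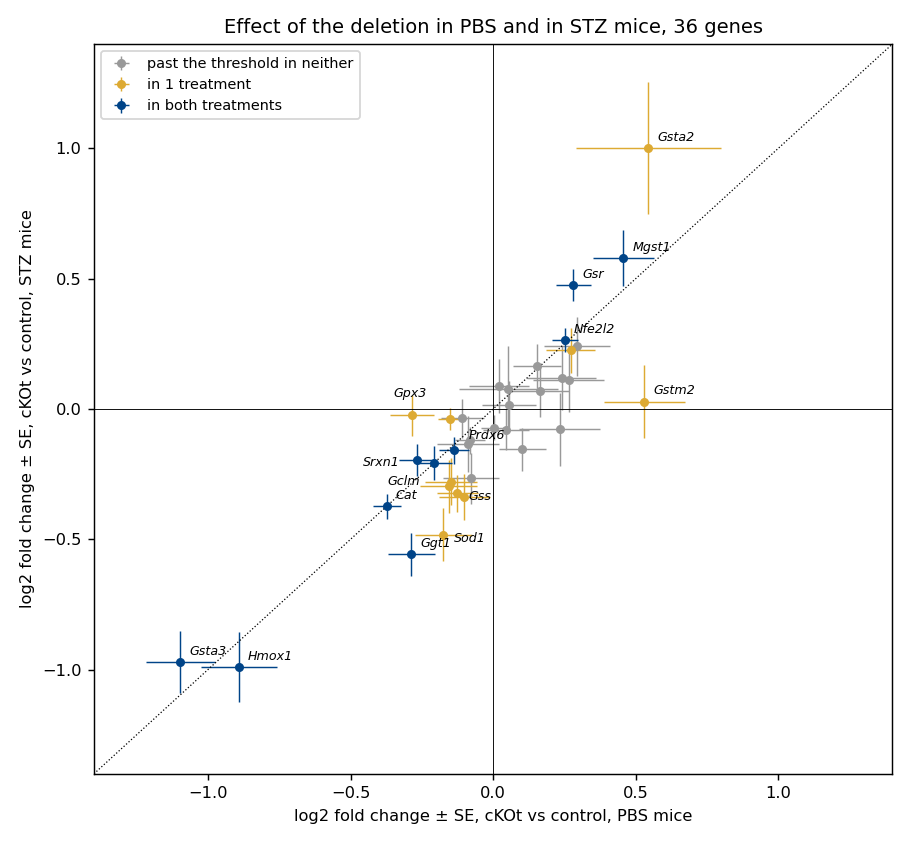
Log2 fold change of cKOt against control in PBS mice (x axis) and in STZ mice (y axis) for the 36 tested genes, with bars of 1 standard error and the line of equal effect dotted. Gsta3 and Hmox1 lie lowest in both treatments, and Mgst1, Gsr and Nfe2l2 are higher in both.

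STZ changed 5 of the 36 genes in control mice and 9 in cKOt mice. In control mice 5 were higher and 0 lower, which is 13.9% of the 36 against 12.3% of all genes tested (6.34% higher, 5.93% lower), a share near that of all genes. In cKOt mice 6 were higher and 3 lower, which is 25.0% against 11.6% of all genes tested (6.00% higher, 5.63% lower). The median log2 difference was 0.094 in control and 0.016 in cKOt mice, beside 0.0050 and −0.0015 over all genes. Ephx1, Gsta3, Gsto1 and Mgst1 were higher with STZ in both genotypes. Nqo1 passed in control mice alone, and Nfe2l2, Gsta2, Ggt1, Gstt1 and Sod1 in cKOt mice alone. The interaction of genotype and STZ, which tests whether the 2 STZ effects differ, called 0 of the 36 with edgeR, against 0.0448% of all genes (7 genes). At an unadjusted p under 0.05 it gave 6 of the 36, beside 1944 of the 15637 genes tested. DESeq2 and voom also called 0 of the 36. So a gene passing in 1 genotype or treatment alone is not shown to differ between them. Without the library labelled STZ-control 2 the STZ counts were 7 in control and 9 in cKOt mice, beside 11.2% and 11.5% of all genes tested. Gclm and Gstm2 were the genes added in control mice. Without the 4 libraries that stood apart they were 5 and 12, beside 9.38% and 11.1%. In control mice this added Gstt1 and lost Mgst1. In cKOt mice it added Nqo1, Srxn1, Gstm1 and Gpx3 and lost Gstt1. With no filter on low counts the STZ calls of Mgst1 in control mice and of Gstt1 and Nfe2l2 in cKOt mice were lost.

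**Figure D3:**
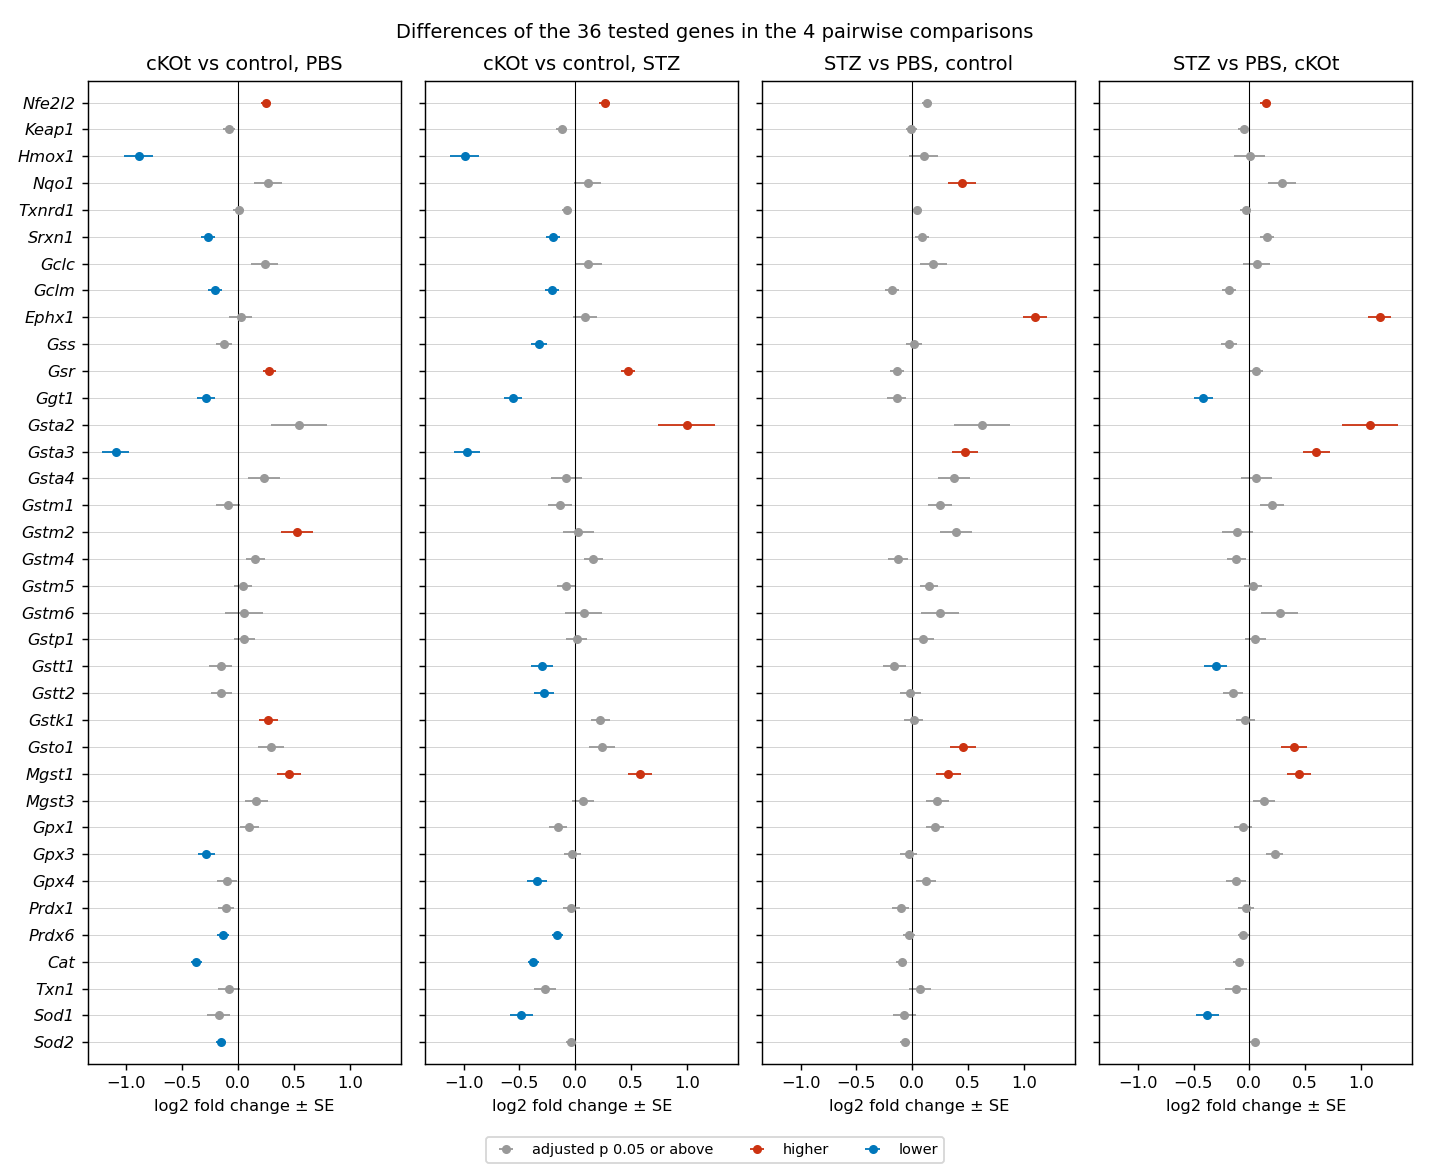
Log2 fold changes with bars of 1 standard error for the 36 tested genes in the 4 pairwise comparisons, with genes past the threshold in red (higher) and blue (lower). The 2 left panels show the deletion and the 2 right panels STZ, where Ephx1 is higher in both genotypes.

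Nfe2l2 (ENSMUSG00000015839, chr2:75675513-75704641, minus strand), here and below with GRCm38 coordinates, was measured at 93.1, 98.5 and 106 CPM (lowest, median and highest library, the order used throughout) in PBS-control and at 108, 118 and 131 CPM in PBS-cKOt, so the groups did not overlap. In STZ-control it had 101, 109 and 121 CPM and in STZ-cKOt 114, 135 and 143 CPM, where 7 of 9 cKOt libraries lay above all controls. The deletion raised Nfe2l2 by 0.25 ± 0.046 (log2 fold change ± standard error, adjusted p = 6.22e-05, edgeR) in PBS mice and by 0.26 ± 0.046 (adjusted p = 3.03e-05, edgeR) in STZ mice. These are changes of 1.19-fold and 1.201-fold. STZ raised it by 0.15 ± 0.046 (adjusted p = 0.0312, edgeR) in cKOt mice, a call that 11 of the 18 omissions of a single library kept, with differences between 0.13 and 0.17, and that was lost without PBS-cKOt 2 or 7 or STZ-cKOt 1, 2, 3, 4 or 8. It was also lost in a fit to those groups alone (0.15 ± 0.052, adjusted p = 0.0650). In control mice the STZ difference was 0.13 ± 0.046 (adjusted p = 0.0509). Keap1, whose counts can include reads of the antisense gene Gm16754 if the counting ignored strand, passed the test in no comparison, with unadjusted 95% intervals of the log2 difference of −0.19 to 0.024 in PBS and −0.23 to −0.015 in STZ mice for the deletion.

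**Figure D4:**
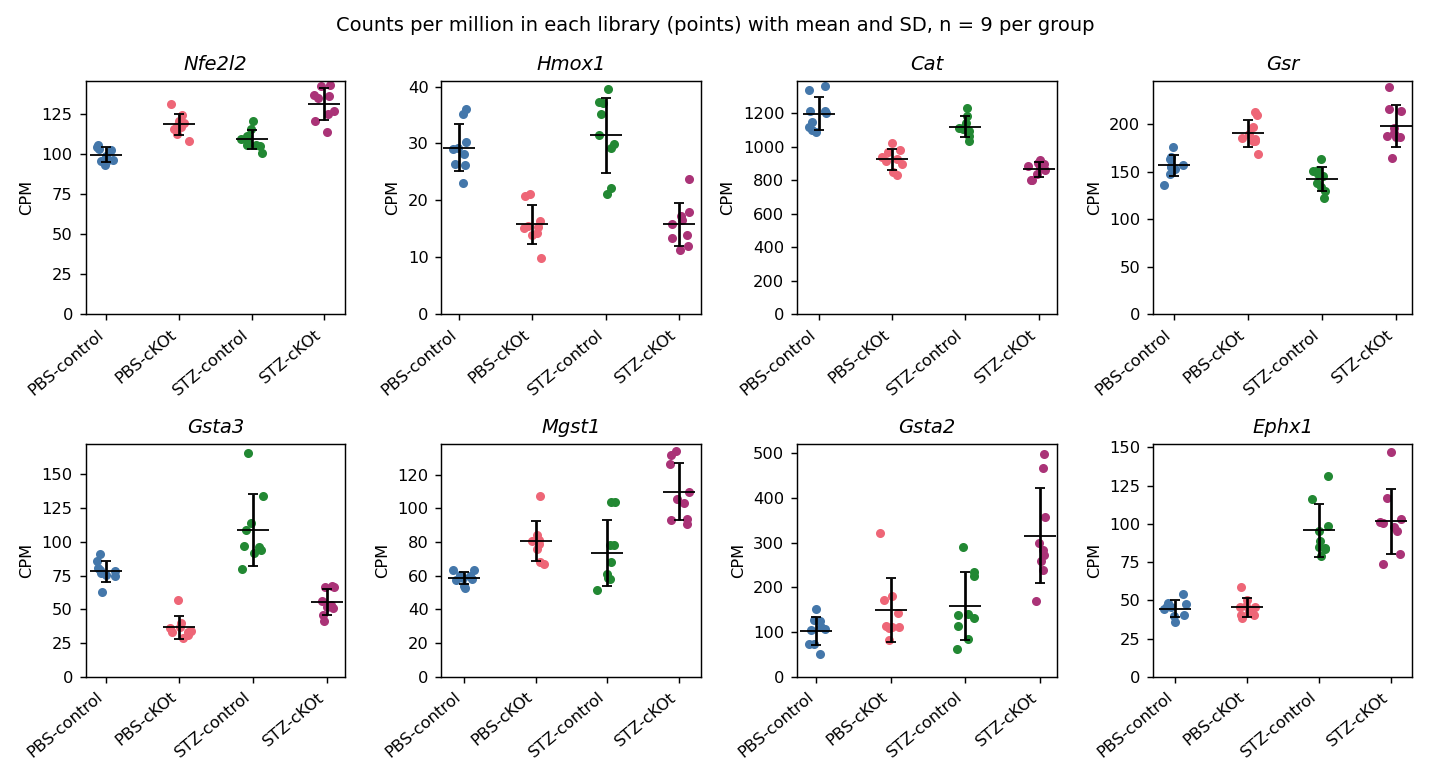
CPM of 8 genes in each library (points), with the mean and SD of 9 libraries per group. Hmox1, Cat and Gsta3 are lower and Nfe2l2, Gsr and Mgst1 higher in cKOt, and Ephx1 is higher with STZ in both genotypes.

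Hmox1 (ENSMUSG00000005413, chr8:75093621-75100589, plus strand) encodes heme oxygenase, which breaks down heme and is a target of NRF2. It had 23.1, 29.0 and 36.1 CPM in PBS-control and 9.80, 15.3 and 21.03 CPM in PBS-cKOt, with no overlap. In STZ-control it had 21.1, 31.4 and 39.5 CPM and in STZ-cKOt 11.2, 15.9 and 23.7 CPM, where 8 of the 9 cKOt libraries lay below all controls. The deletion lowered Hmox1 by 1.86-fold in PBS mice (−0.89 ± 0.13, adjusted p = 2.14e-06, edgeR) and by 1.99-fold in STZ mice (−0.99 ± 0.13, adjusted p = 3.00e-07, edgeR). Macrophages also express heme oxygenase, and a list of 10 macrophage genes, all tested, had 3 lower in PBS-cKOt (C1qa, Cd74 and Lyz2) and 7 lower in STZ-cKOt. Their summed level ran from 220 to 318 CPM in PBS-control, 178 to 234 in PBS-cKOt, 235 to 398 in STZ-control and 202 to 239 in STZ-cKOt. None of the 10 was at 0 in all libraries. Of 8 fibroblast and mural cell genes, 5 were also lower in cKOt in PBS mice and 1 in STZ mice. Of all genes tested, 12.5% were lower in PBS-cKOt and 10.1% in STZ-cKOt. Some other lists had higher genes: 3 of 5 intercalated cell and 1 of 4 distal convoluted tubule genes in PBS mice. In STZ mice 2 of 4 distal convoluted tubule genes were higher, and 1 of 5 intercalated cell genes was higher and 1 lower. Of all genes tested, 10.9% and 9.52% were higher. The part of these cell types in the result was not tested.

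Srxn1, sulfiredoxin, which repairs overoxidised peroxiredoxins, fell with the deletion in PBS mice by 1.204-fold, from 60.0, 62.7 and 66.7 CPM to 42.8, 51.3 and 62.2 CPM (−0.27 ± 0.061, adjusted p = 0.00106, edgeR). In STZ mice it had 56.5, 67.4 and 79.2 CPM in control and 53.7, 57.8 and 72.7 CPM in cKOt (−0.20 ± 0.061, adjusted p = 0.0182). The STZ groups overlapped widely, with 3 cKOt libraries below all controls. That call was lost without the library labelled STZ-control 2 (adjusted p = 0.0516). Gclm, the regulatory subunit of glutamate-cysteine ligase, the first step of glutathione synthesis, had 370.1, 428 and 532 CPM in PBS-control and 327, 381 and 415 CPM in PBS-cKOt. It had 341, 381 and 440.4 CPM in STZ-control and 284, 327 and 402 CPM in STZ-cKOt. Its deletion effects were −0.21 ± 0.064 (adjusted p = 0.0158) in PBS and −0.21 ± 0.064 (adjusted p = 0.0179) in STZ mice by edgeR, and the PBS call did not hold when the 4 libraries that stood apart were omitted (−0.18 ± 0.069, adjusted p = 0.0561). The catalytic subunit Gclc passed in no comparison of the main fit, with deletion intervals of −0.0084 to 0.49 and −0.13 to 0.37. Without the 4 libraries that stood apart, Gclc passed for the deletion in PBS mice. Txnrd1, thioredoxin reductase, passed in no comparison either, with intervals of −0.093 to 0.10 and −0.17 to 0.025.

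Ephx1 (ENSMUSG00000038776, chr1:180976210-181020904, minus strand), microsomal epoxide hydrolase, rose with STZ in both genotypes. It had 35.7, 45.7 and 53.9 CPM in PBS-control and 78.7, 88.6 and 131 CPM in STZ-control, and 38.1, 45.6 and 58.4 CPM in PBS-cKOt and 73.8, 100.4 and 147 CPM in STZ-cKOt. The PBS and STZ groups did not overlap in either genotype. STZ raised Ephx1 2.14-fold in control mice (1.10 ± 0.11, adjusted p = 1.43e-09) and 2.25-fold in cKOt mice (1.17 ± 0.11, adjusted p = 2.82e-10), both by edgeR. The deletion intervals for Ephx1 were −0.19 to 0.24 and −0.12 to 0.30. Nqo1, a quinone reductase and classical NRF2 target, had 40.2, 52.2 and 59.5 CPM in PBS-control and 45.2, 63.5 and 102 CPM in STZ-control, with 5 of the 9 STZ libraries above all PBS ones. Its STZ difference was 0.44 ± 0.12 in control mice (adjusted p = 0.0155, edgeR) and 0.29 ± 0.12 in cKOt mice (adjusted p = 0.128), from 51.3, 59.9 and 88.9 CPM to 63.8, 76.1 and 96.8 CPM. Its deletion intervals were 0.011 to 0.52 and −0.14 to 0.36. Of the 7 NRF2 target enzymes on the list, the deletion thus lowered 3 in each treatment and raised 0, and STZ raised 2 in control and 1 in cKOt mice. Called in either direction were 42.9% of the 7 in both deletion comparisons, against 23.4% and 19.6% of all genes tested. For STZ it was 28.6% and 14.3%, against 12.3% and 11.6%, so the share in cKOt mice was near that of all genes.

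The 5 genes of glutathione synthesis and turnover comprised the ligase subunits above and Gsr, Gss and Ggt1. The deletion raised 1 and lowered 2 of them in PBS mice and raised 1 and lowered 3 in STZ mice, against 23.4% and 19.6% of all genes called. Gsr (ENSMUSG00000031584, chr8:33652523-33698163, plus strand), glutathione reductase, regenerates glutathione from its oxidised form. It had 136, 156 and 176 CPM in PBS-control and 169, 185 and 213 CPM in PBS-cKOt, and 122, 146 and 163 CPM in STZ-control and 165, 191 and 239 CPM in STZ-cKOt. The STZ groups did not overlap, and in PBS mice 8 of 9 cKOt libraries lay above all controls. The deletion raised Gsr by 0.28 ± 0.061 (adjusted p = 0.000574) in PBS and by 0.47 ± 0.061 (adjusted p = 1.17e-07) in STZ mice, by edgeR. Gss, glutathione synthetase, had 279, 331 and 431 CPM in STZ-control and 236, 271 and 303 CPM in STZ-cKOt, a fall of 1.25-fold (−0.32 ± 0.070, adjusted p = 0.000692, edgeR). In PBS mice its interval was −0.27 to 0.018. Gss overlaps Acss2, Gssos1 and Gssos2 on the other strand, and the strand setting of the counting was not given.

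Ggt1 (ENSMUSG00000006345, chr10:75561604-75586200, plus strand), the brush border enzyme that starts the breakdown of glutathione, had 993, 1179.8 and 1334 CPM in PBS-control and 843, 937 and 1110.1 CPM in PBS-cKOt. It had 731, 1119 and 1248 CPM in STZ-control and 613, 696 and 904 CPM in STZ-cKOt, with 5 of 9 cKOt libraries below all controls in each treatment. The deletion effects on Ggt1 were −0.29 ± 0.083 (adjusted p = 0.0101) in PBS and −0.56 ± 0.084 (adjusted p = 2.32e-06) in STZ mice. The STZ effect in cKOt mice was −0.41 ± 0.083 (adjusted p = 0.000768), all by edgeR. Of a list of 12 proximal tubule genes, 4 were lower with the deletion in PBS mice and 6 in STZ mice, and 5 and 7 were lower with STZ in control and cKOt mice, with 0 higher in each. Of all genes tested, 12.5% and 10.1% were lower with the deletion and 5.93% and 5.63% with STZ, in the same order. The deletion differences of 4 of the 12 in PBS mice and 5 in STZ mice were above 0. Their summed level, medians of 47893 CPM in PBS-control, 43834 in PBS-cKOt, 40096 in STZ-control and 32291 in STZ-cKOt, ranged from 25071 CPM in a STZ-cKOt library to 61611 in a PBS-cKOt library. None of the 12 was at 0 in all libraries, and their part in the result was not tested.

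The glutathione transferases couple glutathione to electrophiles. Of the 17 listed, 15 were tested, and the deletion raised 3 and lowered 1 in PBS mice and raised 2 and lowered 3 in STZ mice. These are 26.7% of the 15, near the 23.4% of all genes tested, and 33.3%, against 19.6%. STZ raised 3 in control mice, and raised 4 and lowered 1 in cKOt mice, which is 3 and 5 of the 15 against 12.3% and 11.6% of all genes. Gsta3 (ENSMUSG00000025934, chr1:21240589-21265661, plus strand), an alpha-class transferase, had 62.8, 78.4 and 90.7 CPM in PBS-control and 28.5, 33.9 and 57.0 CPM in PBS-cKOt. In STZ mice it had 79.6, 96.6 and 166 CPM in control and 41.5, 53.2 and 67.6 CPM in cKOt, and in neither treatment did the genotypes overlap. The deletion lowered Gsta3 by 2.14-fold (−1.10 ± 0.12, adjusted p = 2.96e-09) in PBS and 1.96-fold (−0.97 ± 0.12, adjusted p = 4.04e-08) in STZ mice by edgeR. STZ raised it by 0.47 ± 0.12 (adjusted p = 0.00593) in control and 0.60 ± 0.12 (adjusted p = 0.000651) in cKOt mice. So Gsta3 passed the test in all 4 pairwise comparisons, down with the deletion and up with STZ. Gsta3 overlaps the antisense gene Gm28836.

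Mgst1 (ENSMUSG00000008540, chr6:138140316-138156755, plus strand), a membrane-bound transferase, passed in all 4 pairwise comparisons and was higher in each. It had 53.0, 58.6 and 63.2 CPM in PBS-control, 67.0, 80.8 and 107 CPM in PBS-cKOt, 51.8, 67.9 and 104 CPM in STZ-control and 90.8, 106 and 134 CPM in STZ-cKOt. The PBS genotypes did not overlap, whereas the STZ genotypes did. The deletion effects were 0.46 ± 0.11 (adjusted p = 0.00161) and 0.58 ± 0.11 (adjusted p = 8.60e-05), in PBS and STZ mice, by edgeR. With 2 surrogate variables the PBS effect was 0.26 ± 0.093 (adjusted p = 0.0353). The STZ effects were 0.32 ± 0.11 (adjusted p = 0.0431) in control and 0.45 ± 0.11 (adjusted p = 0.00453) in cKOt mice. The control call held in 7 of 18 omissions of a single library, with differences between 0.25 and 0.38, and was lost without PBS-control 1, 2, 3, 4, 5, 8 or 9 or STZ-control 3, 7, 8 or 9. It did not hold when the 4 libraries that stood apart were omitted (0.23 ± 0.10, adjusted p = 0.155), with limma voom (0.18 ± 0.089, adjusted p = 0.181), with 2 surrogate variables (0.21 ± 0.087, adjusted p = 0.101) or in a fit to those groups alone (0.33 ± 0.11, adjusted p = 0.0672). Gsta2, of the same alpha class as Gsta3, spread widely: 50.9, 107 and 151 CPM in PBS-control, 81.5, 114 and 321 CPM in PBS-cKOt, 61.3, 139 and 289.7 CPM in STZ-control and 169.8, 282 and 498 CPM in STZ-cKOt. It was 2.00-fold higher in cKOt among STZ mice (1.00 ± 0.25, adjusted p = 0.00356) and 2.11-fold higher with STZ among cKOt mice (1.08 ± 0.25, adjusted p = 0.00374), both by edgeR. Of its transcript's 50-base windows 64.2% also occur in Gsta1, Gm10639 or Gm3776, and reads that mapped to several places were not assigned, so its level is uncertain.

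Gsto1, an omega-class transferase, rose with STZ in both genotypes. It had 22.8, 25.1 and 31.7 CPM in PBS-control, 27.2, 34.1 and 48.0 CPM in STZ-control, 26.0, 30.6 and 47.8 CPM in PBS-cKOt and 30.8, 39.9 and 59.7 CPM in STZ-cKOt. The STZ effects were 0.46 ± 0.12 (adjusted p = 0.00708) in control and 0.40 ± 0.11 (adjusted p = 0.0163) in cKOt mice by edgeR, the latter lost without STZ-cKOt 9 (adjusted p = 0.0523). Gstm2, a mu-class transferase, had 24.4, 31.0 and 38.4 CPM in PBS-control and 32.3, 42.0 and 74.1 CPM in PBS-cKOt, a rise of 0.53 ± 0.14 (adjusted p = 0.00504, edgeR). That difference was 0.37 ± 0.10 (adjusted p = 0.00751) without the 4 libraries that stood apart and 0.25 ± 0.079 (adjusted p = 0.0153) with 2 surrogate variables. Gstk1, the mitochondrial and peroxisomal kappa transferase, had 38.5, 44.8 and 46.1 CPM in PBS-control and 45.9, 52.3 and 75.3 CPM in PBS-cKOt (0.27 ± 0.085, adjusted p = 0.0175, edgeR), a call lost without PBS-cKOt 1 (adjusted p = 0.0610) and with 2 surrogate variables (0.13 ± 0.069, adjusted p = 0.184). PBS-cKOt 1 was the highest library of its group in both. In STZ mice the deletion intervals were −0.26 to 0.31 for Gstm2 and 0.050 to 0.40 for Gstk1.

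The theta-class transferases Gstt1 and Gstt2 were lower with the deletion in STZ mice. Gstt1 had 51.1, 61.6 and 97.5 CPM in STZ-control and 43.6, 52.6 and 62.9 CPM in STZ-cKOt, with widely overlapping groups (−0.30 ± 0.10, adjusted p = 0.0329, edgeR). Gstt2 had 123, 172 and 235 CPM and 126, 147 and 164 CPM (−0.28 ± 0.091, adjusted p = 0.0252, edgeR). Both calls depended on single libraries and were kept in 13 and 14 of 18 omissions. The Gstt1 call was lost without STZ-control 7 or 8 or STZ-cKOt 1, 3 or 8 (differences between −0.34 and −0.21), and the Gstt2 call without STZ-control 7 or 8 or STZ-cKOt 1 or 8 (−0.33 to −0.21). With the 4 libraries that stood apart omitted, the differences were −0.12 ± 0.073 for Gstt1 (adjusted p = 0.250, edgeR) and −0.17 ± 0.080 for Gstt2 (adjusted p = 0.144, edgeR). The Gstt1 call was also lost with limma voom (−0.17 ± 0.076, adjusted p = 0.116), in a fit to those groups alone (−0.29 ± 0.11, adjusted p = 0.0711) and with the replicate block (−0.28 ± 0.10, adjusted p = 0.0549), and its difference was −0.17 ± 0.059 (adjusted p = 0.0309) with 2 surrogate variables. Gstt1 had 54.3, 64.2 and 91.2 CPM in PBS-cKOt, and STZ lowered it in cKOt mice (−0.30 ± 0.10, adjusted p = 0.0462, edgeR), a call kept in 7 of 18 omissions, with differences between −0.33 and −0.23. That call was lost without PBS-cKOt 1, 3, 5, 6 or 7 or STZ-cKOt 1, 3, 4, 5, 6 or 8, and also without the 4 libraries (−0.21 ± 0.073, adjusted p = 0.0586) and with the replicate block (−0.29 ± 0.10, adjusted p = 0.0584). The remaining tested transferases, Gsta4, Gstm1, Gstm4, Gstm5, Gstm6, Gstp1 and Mgst3, passed in no comparison of the main fit. Their log2 differences with the deletion ran from −0.13 ± 0.11 in Gstm1 among STZ mice to 0.23 ± 0.14 in Gsta4 among PBS mice. With STZ they ran from −0.13 ± 0.086 in Gstm4 to 0.37 ± 0.14 in Gsta4, both in control mice. For Gstp1 62.3% of the transcript's 50-base windows are shared with Gstp2 or a pseudogene, and for Gstm1 23.1% with other mu-class sequences, so these levels are uncertain too.

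Among the 11 peroxidases, thioredoxin genes, catalase and superoxide dismutases, with Srxn1 and Txnrd1 counted again, the deletion lowered 5 in each treatment and raised 0, which is 45.5% of the 11 against 12.5% and 10.1% of all genes lower. Catalase had the smallest adjusted p of the 11 in both treatments. Cat (ENSMUSG00000027187, chr2:103453849-103485160, minus strand) had 1087, 1199 and 1364 CPM in PBS-control and 828.6, 926 and 1019.9 CPM in PBS-cKOt, and 1033, 1110.0 and 1233 CPM in STZ-control and 801, 873 and 922 CPM in STZ-cKOt, with no overlap of genotypes in either treatment. It fell 1.30-fold in PBS mice (−0.37 ± 0.049, adjusted p = 1.84e-07) and 1.30-fold in STZ mice (−0.37 ± 0.049, adjusted p = 2.02e-07), by edgeR. Prdx6, a peroxiredoxin that also acts as a phospholipase, had 192, 209.6 and 221 CPM in PBS-control and 158, 186 and 237 CPM in PBS-cKOt (−0.14 ± 0.052, adjusted p = 0.0495, edgeR). In STZ mice it had 189.8, 201 and 219 CPM in control and 163, 187 and 195 CPM in cKOt (−0.16 ± 0.052, adjusted p = 0.0247, edgeR). The PBS call was kept in 3 of 18 omissions of a single library (PBS-control 4, PBS-control 7 and PBS-cKOt 1), with differences between −0.18 and −0.11 over the 18, and the STZ call in 15 (−0.17 to −0.14), being lost without STZ-control 6, STZ-cKOt 7 or STZ-cKOt 8. The PBS call was also lost without the library labelled STZ-control 2 (−0.14 ± 0.052, adjusted p = 0.0543, edgeR) and in a fit to those groups alone (−0.13 ± 0.056, adjusted p = 0.0973). Gpx3 had 15278, 18354 and 19854 CPM in PBS-control and 10700.0, 14836 and 18370.5 CPM in PBS-cKOt (−0.28 ± 0.079, adjusted p = 0.00680, edgeR). In STZ mice its interval was −0.19 to 0.14. Of the 12 proximal tubule genes described beside Ggt1, 4 were lower in PBS-cKOt and 6 in STZ-cKOt, and their part in the results for Cat and Gpx3 was not tested.

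Sod2, the mitochondrial dismutase, had 262, 289.8 and 313 CPM in PBS-control and 249, 259 and 268 CPM in PBS-cKOt (−0.15 ± 0.041, adjusted p = 0.00573, edgeR), and its interval in STZ mice was −0.12 to 0.045. Sod1, the cytosolic dismutase, had 355, 440.1 and 693 CPM in STZ-control and 296, 317 and 411 CPM in STZ-cKOt, with 7 of 9 cKOt libraries below all controls. It fell 1.397-fold with the deletion in STZ mice (−0.48 ± 0.10, adjusted p = 0.000429, edgeR). It had 354, 392 and 597 CPM in PBS-cKOt, and STZ lowered it in cKOt mice (−0.38 ± 0.10, adjusted p = 0.0107, edgeR). The highest Sod1 values of STZ-control and PBS-cKOt were in STZ-control 7 and PBS-cKOt 1, both among the libraries that stood apart. Over 10 alternative settings the deletion difference in STZ mice ran from −0.49 to −0.33. The STZ difference in cKOt mice ran from −0.38 to −0.25, and both calls were kept in all 10. Gpx4, which reduces lipid peroxides, had 191, 215 and 296 CPM in STZ-control and 142, 176 and 206 CPM in STZ-cKOt (−0.34 ± 0.089, adjusted p = 0.00510, edgeR), and its difference was −0.22 ± 0.051 with 2 surrogate variables. Gpx4 shares 61.7% of its transcript's 50-base windows with Gpx4 pseudogenes, and Sod1 shares 23.1% with Gm8566 and overlaps Scaf4 on the other strand. Gpx1, Prdx1 and Txn1, thioredoxin, passed in no comparison of the main fit, with deletion intervals in STZ mice of −0.32 to 0.012, −0.19 to 0.12 and −0.47 to −0.066. Without the 4 libraries that stood apart, Prdx1 passed for the deletion in PBS mice.

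Other genes of the pathway, from a list of 93 of which 86 were tested, passed the test 26 times in PBS mice (12 higher, 14 lower) and 29 times in STZ mice (15 higher, 14 lower) for the deletion. For STZ the counts were 15 in control mice (7 higher, 8 lower) and 17 in cKOt mice (8 higher, 9 lower). These are 30.2% and 33.7% of the 86 for the deletion, against 23.4% and 19.6% of all genes tested, and 17.4% and 19.8% for STZ, against 12.3% and 11.6%. This list too was chosen with earlier results of these data known. The median log2 differences of the 86 were −0.0029 and −0.037 for the deletion and 0.027 and 0.011 for STZ. The genes with the smallest adjusted p for the deletion in PBS mice were Ces1g, a carboxylesterase, at −2.31 ± 0.22, Gstm7, another mu-class transferase, at 1.19 ± 0.12, and Glrx, glutaredoxin, at −0.64 ± 0.067. Ggct, which cleaves gamma-glutamyl amino acids, was at 1.22 ± 0.14, Oplah, which opens the 5-oxoproline ring, at −0.67 ± 0.084, and Cbr1, a carbonyl reductase, at 1.01 ± 0.14. In STZ mice Oplah was at −0.73 ± 0.084, Gstm7 at 1.02 ± 0.12, Cndp2, a dipeptidase, at −1.19 ± 0.14, Cbr1 at 1.11 ± 0.14, Glrx at −0.50 ± 0.067 and Ces1g at −1.78 ± 0.24. Several of these pathway enzymes, such as Gstm7 and Cbr1, were higher and others, such as Oplah and Glrx, lower with the deletion.

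For STZ in control mice the listed genes with the smallest adjusted p were Ces1g at −1.21 ± 0.20, Cbs, the enzyme that starts cysteine synthesis from homocysteine, at −0.37 ± 0.075, and Glrx3 at 0.33 ± 0.068. Me1, which supplies NADPH, was at −0.29 ± 0.062, Ptges, a prostaglandin E synthase, at 0.44 ± 0.099 and Sesn2, a stress-induced sestrin, at 0.34 ± 0.080. In cKOt mice they were Cbs at −0.63 ± 0.075, Cbr3, a carbonyl reductase, at 1.41 ± 0.25, the transporter Abcc4 at 0.89 ± 0.17, Sesn1 at 0.38 ± 0.072, Gstz1 at −0.25 ± 0.054 and Abcc3 at 0.65 ± 0.14. All 24 differences named passed edgeR's test. In control mice 4 of the 5 tested adipocyte genes were lower with STZ, and 3 of 4 distal convoluted tubule, 3 of 10 macrophage and 2 of 8 fibroblast and mural cell genes were higher. Of all genes tested there, 5.93% were lower and 6.34% higher. The summed level of the adipocyte genes ran from 3.07 to 158 CPM in PBS-control and from 1.27 to 13.1 CPM in STZ-control, and that of the distal convoluted tubule genes from 951 to 1517 and from 1185 to 1531 CPM. In cKOt mice STZ raised 2 of 4 distal convoluted tubule, 4 of 8 fibroblast and mural cell and 3 of 7 endothelial genes. Of all genes tested there, 6.00% were higher. The part of these cell types in these results was not tested.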

How the data were processed

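The deposited files hold, for each of 36 libraries, the number of reads the authors assigned to each gene, a raw count. Per the submitters' processing notes, cutadapt 1.8, STAR 2.5.3a and HTSeq 0.9.1 were used with the GRCm38 genome. Per the labels' protocols, 500 ng of RNA per animal went into TruSeq Stranded mRNA libraries. Its annotation release, strand setting and counting options are not given in the sources used here. In all, 53715 genes per file were named with GENCODE M21. Reads mapped to more than 1 place, 30.9% to 42.8% per library, were in no gene's count. Each library is a separate animal. Groups came from the sample titles. All 36 libraries entered the main results, no 2 files were identical, and same-group pairs differed by a chi-square per gene of at least 5.88.

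Genes were filtered with filterByExpr (15637 left) and fitted with edgeR 4.0.16 in R 4.3.3, with TMM scaling, 1 mean per group over all libraries (32 residual degrees of freedom) and quasi-likelihood F tests, adjusted by Benjamini and Hochberg over all genes tested. CPM use TMM library sizes, and levels per length divide by the exon length of the union of transcripts. The test was checked on simulated counts with known changes. These held no library with clock genes at odds with its label and none set apart by transcript length, so the check does not cover such libraries. The members and lists were chosen with earlier results of these data known. Members past the threshold in at least 1 comparison are given in full, with the 6 other pathway genes of smallest adjusted p per comparison, and promoters for up to 6 members past the threshold in most comparisons. Alternatives were DESeq2 1.42.0 (size factors and Wald test), limma 3.58.1 voom with quality weights, no filter, a mean of 1 CPM, 2-group fits, a replicate block, 2 surrogate variables from sva 3.50.0, and leaving out libraries. Omitting each library in turn was chosen after seeing the data. Replicate numbers did not pair the samples.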

Additional observations from a re-analysis of the deposited data

Results flagged for a closer look

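In 27 of 144 groups (36 genes in 4 groups of 9), 1 library lay apart from the other 8 by Dixon's criterion at the 95% level, and chance flags about 1 in 20 groups. Of the 27, 14 were PBS-cKOt 1, 4 STZ-control 7, 2 each STZ-cKOt 2 and STZ-cKOt 9, and 1 each in 5 other libraries. In PBS-cKOt 1, the library whose short transcripts read highest, the values were the highest of its group: 321.1 CPM for Gsta2, 57.0 for Gsta3, 33.5 for Gsta4, 74.1 for Gstm2, 20.7 for Gstm4, 150.2 for Gstm5, 62.8 for Gstp1, 91.2 for Gstt1, 75.3 for Gstk1, 107.3 for Mgst1, 86.5 for Mgst3, 310.4 for Txn1, 1413 for Prdx1 and 236.5 for Prdx6. In STZ-control 7 the highest values were 296.5 CPM for Gpx4, 61.9 for Gstp1, 323.7 for Txn1 and 1179 for Prdx1. In STZ-cKOt 2 the highest values were 745.2 CPM for Gstm1 and 244.1 for Txn1, and in STZ-cKOt 9 they were 128.0 CPM for Gstm5 and 72.7 for Srxn1. STZ-cKOt 4 was highest for Gstm6 at 2.88 CPM. PBS-control 3 was highest for Gstt2 at 223.0 CPM. PBS-control 5 was lowest for Gstk1 at 38.5 CPM, PBS-control 1 lowest for Gpx3 at 15278 CPM and STZ-control 8 lowest for Sod2 at 245.9 CPM. The cause of the pattern was not tested.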

How the results depend on the processing

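The counts of genes past the threshold for the deletion stayed within 1.5 times of 14 and 16 under every alternative run. Apart from the omissions of single libraries in turn, 9.87% (no filter) to 27.6% (voom) of all genes tested passed in PBS mice. In STZ mice 8.38% (no filter) to 23.5% (2 surrogate variables) passed. The interaction gave 0 under each alternative that holds all 4 groups, and it could not be fitted with only the groups compared. For STZ in control mice the count of 5 became 8 with the DESeq2 Wald test and 9 with 2 surrogate variables. Of all genes tested, 13.4% and 17.7% passed in these fits, against 12.3% in the main fit. For STZ in cKOt mice the count of 9 became 14 with limma voom and 15 with 2 surrogate variables. There 15.6% and 20% of all genes tested passed, against 11.6% in the main fit. The causes were not tested. Leaving out each library in turn gave 13 to 15 and 14 to 18 for the deletion in PBS and STZ mice, and 4 to 7 and 7 to 11 for STZ in control and cKOt mice. For these omissions the shares of all genes tested are given only for the library labelled STZ-control 2, above. No difference that passed reversed its direction. Among the 44 single-gene calls, 10 were lost with no filter on low counts, 5 without the 4 libraries that stood apart, 4 with fits to only the groups compared, and 2 each under voom, the replicate block, the surrogate variables and without the library labelled STZ-control 2. With the replicate block the counts were 14, 16, 6, 9 and 0, in the order above. The shares of all genes tested were 23.9%, 20%, 13%, 12.2% and 0.032%. Same-numbered libraries of different groups correlated with a median of 0.0227 (range −0.247 to 0.396, 54 pairs), and other pairs with 0.00489, so the numbers do not pair the samples. Gsta1 and Gstm3 had at most 20 and 5 assigned reads per library, too few to test, and how far depth and how far reads shared with other genes set this was not tested.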
